A study of Homo sapiens with 4 samples.

Results

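ZDHHC20 and 9 further genes of the ZDHHC family (ZDHHC2, ZDHHC3, ZDHHC5, ZDHHC7, ZDHHC9, ZDHHC13, ZDHHC17, ZDHHC18 and ZDHHC21) were followed through RNA-Seq of melanoma cells in which the long noncoding RNA LINC00622 was silenced. The 10 genes were taken by symbol from a table of 17755 genes. Of 24 ZDHHC symbols searched, 20 are listed, so that 10 other family members could be set beside the 10 chosen ones. ZDHHC1, ZDHHC15, ZDHHC19 and ZDHHC22 were not analysed here. The set was chosen by the ratio of siLINC00622 over siNC of ZDHHC20, which was low in both cell lines, with the other enzymes as its comparison. Values of this ratio are therefore a description without a test.

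The study asked which genes respond to loss of LINC00622 in the SK-MEL-28 line and A375, 2 established human lines derived from melanoma. Each line received either a control siRNA (siNC) or an siRNA against LINC00622 (siLINC00622), and each of these 4 conditions is represented by 1 library. Transfected cells were kept for 6 h without serum and then for 24 h in medium with 10% serum, which all 4 conditions share. The knockdown is transient, and the sources used here name 2 siRNAs against LINC00622 without saying which was sequenced. With 1 library per condition, any difference between siNC and siLINC00622 within a line has no replicate check.

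Palmitoylation attaches a fatty acid, mostly palmitate, to cysteines of proteins through a thioester bond, which can be removed again by thioesterases. In animals this reaction is catalysed by the ZDHHC enzymes, multi-pass membrane proteins named for the Asp-His-His-Cys motif of their catalytic domain, which use palmitoyl-CoA and reside in the ER, the Golgi apparatus or the plasma membrane. Their substrates include RAS proteins, tetraspanins, receptors and, in pigment cells, the melanocortin receptor MC1R. ZDHHC20 is an enzyme of the plasma membrane, known for modifying the growth factor receptor EGFR and the antiviral protein IFITM3.

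The 2 designed siRNA sequences are shown first because a short siRNA can also pair, through its seed, with transcripts other than its target. Capitals mark bases 12 to 18 of the listed strand, which lie opposite positions 2 to 8 (the seed) of the guide strand.
siLINC00622_1: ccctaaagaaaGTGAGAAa
siLINC00622_2: ggcaacctctaATTGACTt
The first lies at bases 555 to 573 and the second at bases 815 to 833 of the annotated LINC00622 transcript of 1570 bases.

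The annotated 3′ untranslated regions (UTRs) of the ZDHHC genes were searched on the transcript strand alone for the same 7 letters, GTGAGAA for the first siRNA and ATTGACT for the second. The longest annotated UTR of each gene was read. ATTGACT was found in 4 of the 20 listed ZDHHC genes, among them ZDHHC20 and ZDHHC17 of the 10 chosen genes, as well as ZDHHC4 and ZDHHC23. The 2 stretches of UTR found among the chosen genes are printed with the 7 letters in capitals.
ZDHHC20: atttgtgcagcATTGACTtagagc
ZDHHC17: gttttaagttgATTGACTagttat
The stretch of ZDHHC20 lies at chr13:21376451-21376474 on the minus strand of GRCh38, where the 7 letters take bases 185 to 191 of a UTR of 4075 bases. In ZDHHC20 the match runs on for 1 more base, to the 8 letters ATTGACTT that lie opposite guide positions 1 to 8. The stretch of ZDHHC17 lies at chr12:76851421-76851444 on the plus strand, at bases 447 to 453 of a UTR of 2711 bases. The base after its 7 letters is A, so it does not hold these 8 letters, and no other kind of 8-base site was searched.

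Matches of this length are common, and the letters alone do not show that an siRNA acts there. ATTGACT was present in 12.5% of the 12383 genes with a UTR (1553 genes), and the 8 letters in 5.15% (638 genes). ZDHHC20 alone among the 20 ZDHHC genes held these 8 letters of the second siRNA, and 4 of its 5 transcripts with a 3′ UTR carried the 7. In ZDHHC17 the 7 letters were in 1 of 8 transcripts. GTGAGAA, from the first siRNA, was present in ZDHHC2, ZDHHC3, ZDHHC9 and ZDHHC18 and in 16.1% of all genes with a UTR. The 8 letters of the first siRNA, GTGAGAAA, were present in ZDHHC2 and ZDHHC3 and in 6.51% of all genes with a UTR. Of the ZDHHC genes with ATTGACT, ZDHHC20 had log2 ratios of siLINC00622 over siNC of -2.54 in the SK-MEL-28 line and -1.43 in A375. ZDHHC17 had 0.09 and 0.08, ZDHHC4 -0.14 and 0.06, and ZDHHC23 -0.14 and -0.17. Whether any of these matches has a part in the level of any of these genes was not tested.

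The libraries held between 31269923 and 36384819 counts. Read counts of LINC00622, the targeted transcript, were 309 with siNC and 135 with siLINC00622 in the SK-MEL-28 line, and 135 and 86 in A375. Its log2 ratio of siLINC00622 over siNC was -1.21 in the SK-MEL-28 line and -0.84 in A375, so the target was lower in both lines. All 8 melanocyte lineage markers are listed. Their summed level, in FPKM (fragments scaled for transcript length and library depth), was 2061 and 2210 in the SK-MEL-28 line and 133 and 166 in A375. SOX10, a transcription factor that defines the lineage, had at least 15109 counts in each library, whereas TYR, the enzyme of melanin synthesis, had 17 and 22 counts in A375. Most of the A375 sum was SOX10, at 118 and 149 FPKM. MITF had 5.29 and 4.95 FPKM there and S100B 5.54 and 8.40. PMEL, MLANA, TYR, DCT and TYRP1 each had at most 2.35 FPKM in A375. Of the keratinocyte, fibroblast, immune and endothelial markers, 2 of 4, 1 of 4, 0 of 4 and 0 of 3 are listed. The summed keratinocyte markers (KRT10 and KRT14) were at 19.1 and 19.4 FPKM in the SK-MEL-28 line and 32.2 and 32.4 FPKM in A375, where KRT14 had 494 and 504 counts. LUM, the fibroblast marker, had 803 and 892 counts in SK-MEL-28 cells and 187 and 372 in A375, with log2 ratios of 0.12 and 0.78 (0.53 to 1.04), and its part in the results below was not tested.

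ZDHHC20 was among the highest ZDHHC transcripts of both lines with siNC and was much lower with siLINC00622. Its read counts were 4205 with siNC and 735 with siLINC00622 in the SK-MEL-28 line. In A375 they were 5418 and 2323. Both siLINC00622 libraries thus lay below both siNC libraries.

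On the log2 scale, the ratio for ZDHHC20 came to -2.54 in SK-MEL-28, with a 95% counting interval of -2.66 to -2.43. In A375 it was -1.43, with an interval of -1.50 to -1.36. These values correspond to levels 5.83-fold lower in the SK-MEL-28 line and 2.70-fold lower in A375. The 2 counting intervals did not overlap, but they hold counting error only, and with 1 library per condition the difference between the lines could not be tested. In bulk RNA, fewer cells of a type and less of a transcript per cell cannot be told apart.

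Among all genes with at least 50 counts in 1 of a line's 2 libraries, the ratio of ZDHHC20 was number 3 from the bottom of 12743 genes in the SK-MEL-28 line and number 11 of 13505 in A375. With at least 10 counts it was number 4 of 15442 and number 34 of 16021. A gene is counted as lower or higher when it differed by over 1.5-fold and had at least 10 counts in 1 of the 2 libraries. By this count, 6.49% of genes were lower and 4.56% higher in the SK-MEL-28 line, and 4.34% were lower and 4.52% higher in A375. Of the 10 chosen genes, 2 were lower (ZDHHC20 and ZDHHC2) and 1 was higher (ZDHHC18) in SK-MEL-28. In A375, 1 was lower (ZDHHC20) and 0 were higher. ZDHHC20 was the single ZDHHC gene below this limit in both lines, and 161 of 14721 genes counted in both lines were so (1.09%). Because the choice of ZDHHC20 used this contrast, nothing is read from these shares.

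**Figure D1:**
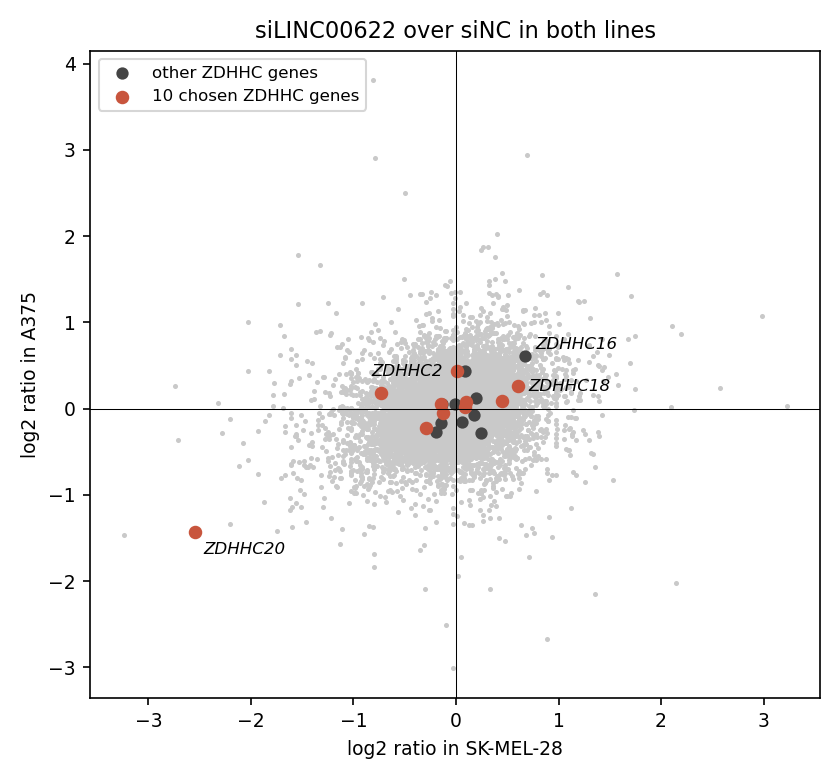
Log2 ratio of siLINC00622 over siNC in SK-MEL-28 (x axis) against A375 (y axis), 1 point per gene with at least 10 counts in 1 library of each line (14721 genes, grey), with the 10 chosen ZDHHC genes in red and the 10 others in black. ZDHHC20 stands at the lower left at -2.54 and -1.43, apart from the other 19 ZDHHC genes, which lie between -0.73 and 0.67.

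The level of ZDHHC20 per transcript length shows its place within the family. It had 22.8 FPKM with siNC and 3.86 FPKM with siLINC00622 in the SK-MEL-28 line, and 31.1 and 11.5 FPKM in A375. By FPKM it ranked 2 of the 20 ZDHHC genes with siNC and 13 with siLINC00622 in the SK-MEL-28 line, and 1 and 4 in A375. Its share of the summed FPKM of the 20 genes was 14.2% with siNC and 2.46% with siLINC00622 in the SK-MEL-28 line, and 17.7% and 6.85% in A375.

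The sum over the family moved less than ZDHHC20 itself. It was 160 FPKM with siNC and 157 FPKM with siLINC00622 in the SK-MEL-28 line, and 175 and 167 FPKM in A375. Without ZDHHC20, the sum was 137 and 153 FPKM in the SK-MEL-28 line, and 144 and 156 FPKM in A375, higher with siLINC00622 in each line. These sums add FPKM values and say nothing of enzyme amount or activity.

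**Figure D2:**
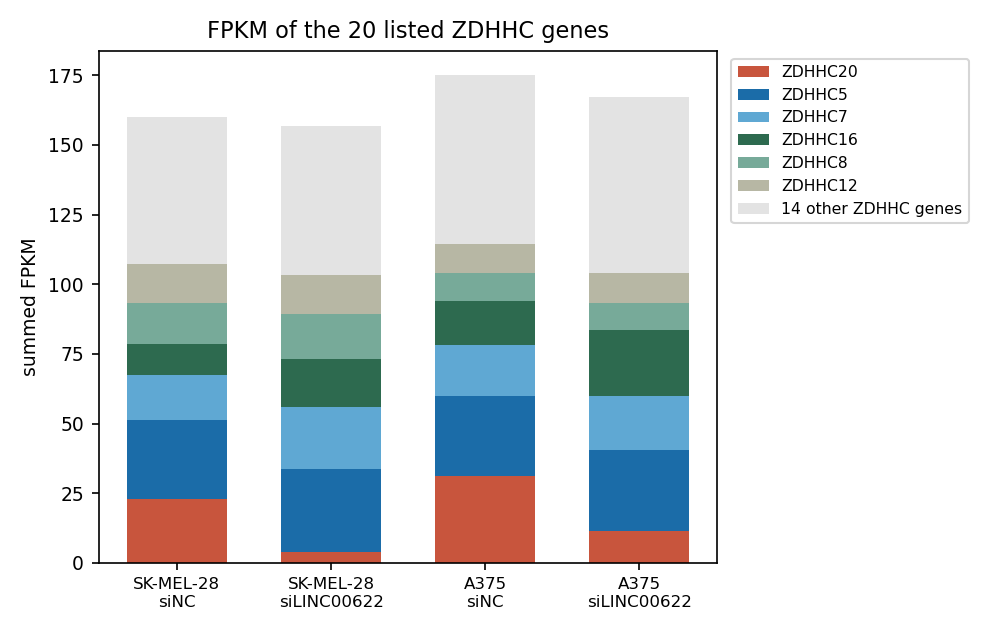
Stacked bars of the FPKM of the 20 listed ZDHHC genes in each of the 4 libraries, with ZDHHC20 at the base and the 14 genes not shown singly in light grey. The red ZDHHC20 part shrinks from 22.8 to 3.86 FPKM in the SK-MEL-28 line and from 31.1 to 11.5 FPKM in A375, while the total stays between 157 and 175 FPKM.

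ZDHHC5 and ZDHHC21 stayed within 1.5-fold in both lines. ZDHHC5, an enzyme of the plasma membrane that modifies the scaffold protein flotillin-2, ranked 1 or 2 among the ZDHHC transcripts of every library, with 28.5 and 29.96 FPKM in the SK-MEL-28 line and 28.9 and 29.1 FPKM in A375 (siNC, then siLINC00622). Its log2 ratios were 0.08 and 0.02. ZDHHC21, an enzyme known for modifying endothelial nitric oxide synthase and sex steroid receptors, had 938 and 864 counts in the SK-MEL-28 line and 1819 and 2176 counts in A375, with ratios of -0.15 and 0.05.

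ZDHHC2 is known for modifying CKAP4 and the tetraspanins CD9 and CD151. It is a close relative of ZDHHC20. Its counts were 24 and 14 in the SK-MEL-28 line and 723 and 945 in A375. Its log2 ratio came to -0.73 in SK-MEL-28, with a counting interval of -1.87 to 0.20, and 0.18 (0.04 to 0.32) in A375. The interval in SK-MEL-28 spans 0, so a difference was not detectable at these counts although the ratio passed the 1.5-fold limit.

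ZDHHC18 and ZDHHC7 are enzymes of the Golgi apparatus. ZDHHC18, which modifies HRAS, had 1022 and 1594 counts in the SK-MEL-28 line and 1077 and 1494 in A375, with log2 ratios of 0.61 (0.50 to 0.72) and 0.26 (0.15 to 0.38). ZDHHC7, an enzyme with broad substrate choice, had 2132 and 2976 counts in the SK-MEL-28 line and 2263 and 2783 in A375, with ratios of 0.45 (0.37 to 0.53) and 0.09 (0.01 to 0.17). Both genes were thus higher in SK-MEL-28 beyond counting error, and by less in A375.

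ZDHHC3, the nearest relative of ZDHHC7, did not share its higher level. Its counts were 2107 and 1968 in the SK-MEL-28 line and 2844 and 3174 in A375, with ratios of -0.13 and -0.05. ZDHHC9, which acts with GOLGA7 on RAS proteins, showed the converse pattern of lines to ZDHHC7. It had 1392 and 1437 counts in the SK-MEL-28 line and 851 and 1335 in A375, with ratios of 0.01 (-0.09 to 0.12) and 0.44 (0.31 to 0.57).

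ZDHHC13 and ZDHHC17 are the ZDHHC enzymes that carry ankyrin repeats. ZDHHC13, which modifies MC1R, had 768 and 641 counts in the SK-MEL-28 line and 522 and 515 in A375, with ratios of -0.29 (-0.45 to -0.14) and -0.23 (-0.41 to -0.05). ZDHHC17, which modifies huntingtin, had 779 and 850 counts in the SK-MEL-28 line and 1513 and 1853 in A375, with ratios of 0.09 and 0.08. ZDHHC13 was the second gene of the 10, after ZDHHC20, whose counting interval lay below 0 in both lines, although it stayed within 1.5-fold.

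Leaving ZDHHC20 aside, the 9 other chosen genes had a median log2 ratio of 0.01 in SK-MEL-28 (range -0.73 to 0.61) and 0.08 in A375 (range -0.23 to 0.44). The medians over all genes with at least 10 counts were -0.004 and 0.004. No member's ratio changed sign under the 7 other scalings, prior counts or units tried in either line.

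**Figure D3:**
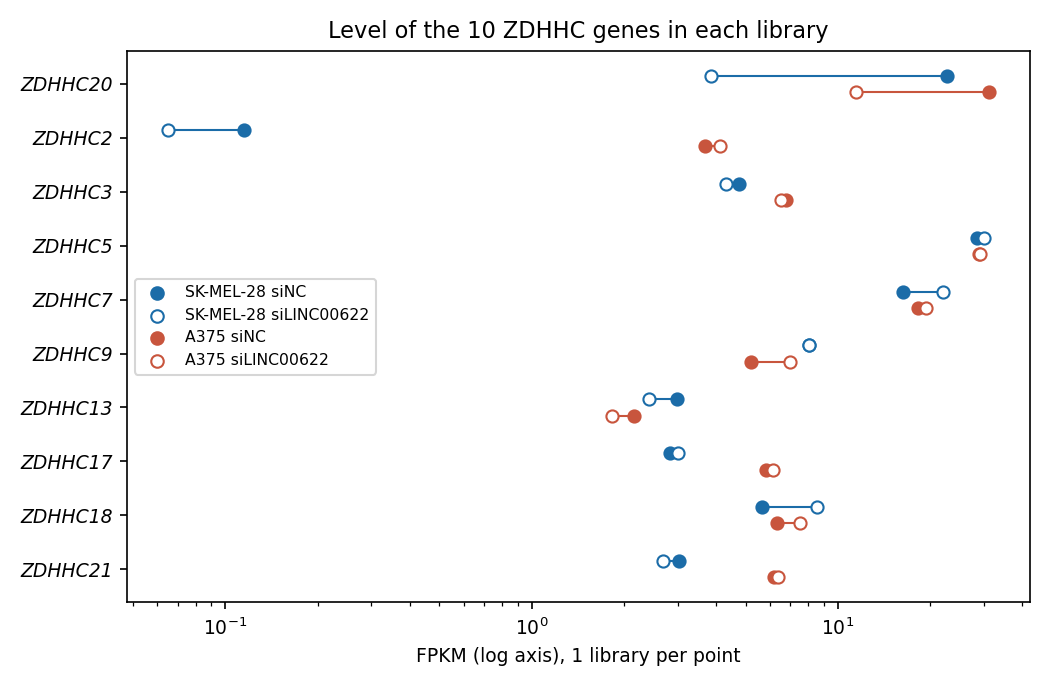
FPKM of each of the 10 chosen genes (log axis), with SK-MEL-28 in blue and A375 in red; filled points are siNC libraries, open points are siLINC00622 libraries and lines join the pair. ZDHHC20 shows the long gaps from 22.8 to 3.86 and from 31.1 to 11.5 FPKM, and ZDHHC2 stands near 0.1 FPKM in SK-MEL-28 but between 3.68 and 4.13 FPKM in A375.

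Of the 10 other listed ZDHHC genes, ZDHHC16 was the only one past 1.5-fold in either line, and it was higher in both. ZDHHC16 is an enzyme of the ER. Its counts were 1096 and 1784 in the SK-MEL-28 line and 1477 and 2605 in A375, with log2 ratios of 0.67 (0.56 to 0.78) and 0.61 (0.52 to 0.70). Both siLINC00622 libraries lay above both siNC libraries. Across the lines, the edgeR quasi-likelihood estimate was 0.65 with an SE of 0.10 and a Benjamini-Hochberg adjusted p of 0.066, which misses 0.05, and over the alternatives run that p ranged from 0.0030 (DESeq2) to 1.00 (no replicate block).

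The remaining 9 lay within 1.5-fold in both lines. ZDHHC24 had ratios of 0.09 and 0.43, ZDHHC8 of 0.17 and -0.08, and ZDHHC6, which acts with SELENOK in the ER, of 0.06 and -0.16. ZDHHC4, ZDHHC12, ZDHHC14 and ZDHHC23 lay between -0.17 and 0.19. ZDHHC11 and ZDHHC11B are near-identical copies whose reads could be split between them, so their separate values are uncertain. ZDHHC11 had 210 and 255 counts in the SK-MEL-28 line and 979 and 934 in A375, with ratios of 0.25 and -0.28. ZDHHC11B had 1523 and 1361 against 16 and 15 counts, with ratios of -0.19 and -0.27, and between the lines its edgeR log2 fold change of 6.70 was larger than that of any chosen gene. ZDHHC11B, at a mean of 0.0601 FPKM in A375, is listed only through SK-MEL-28, as no listed gene had a mean FPKM under 0.25. The summed counts of ZDHHC11 and ZDHHC11B were 1733 and 1616 in the SK-MEL-28 line and 995 and 949 in A375, with ratios of -0.13 and -0.28.

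**Figure D4:**
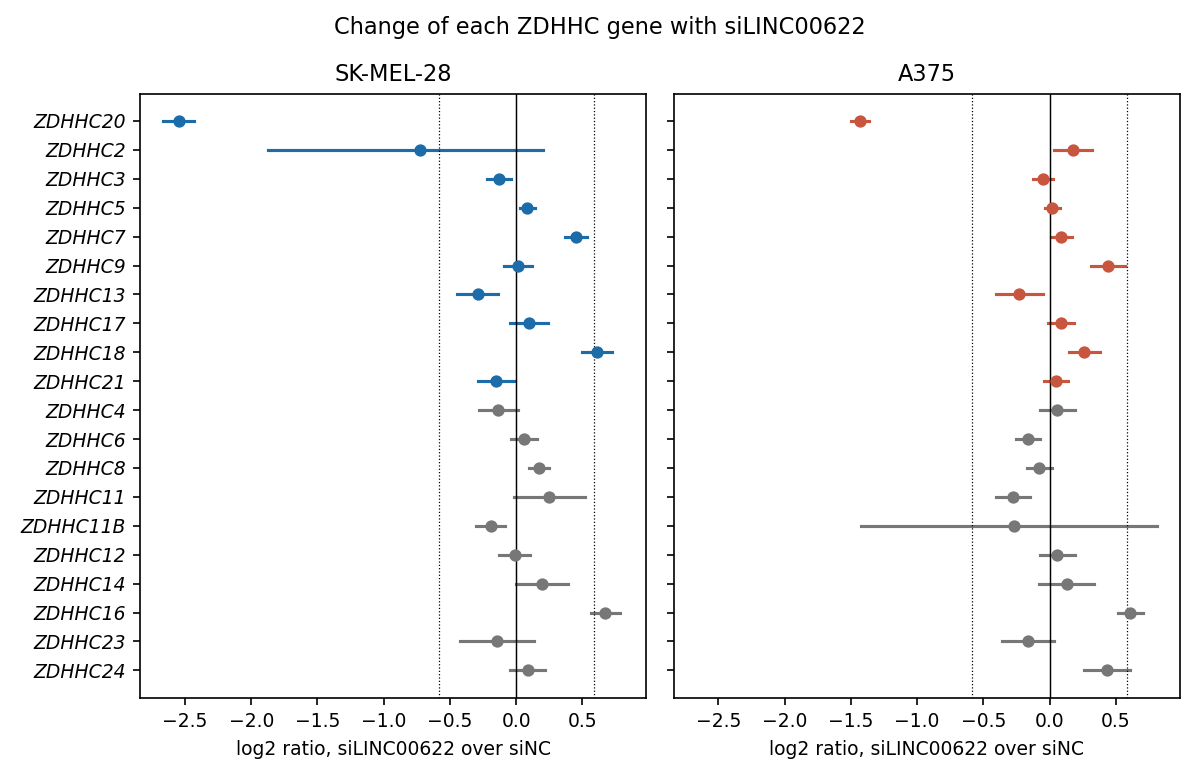
Log2 ratio of siLINC00622 over siNC for the 20 listed ZDHHC genes in SK-MEL-28 (left) and A375 (right); points are the ratios, bars the 95% counting intervals, coloured for the 10 chosen genes and grey for the others, and dotted lines mark 1.5-fold. ZDHHC20 lies far below the lower dotted line in both panels, and ZDHHC16, at 0.67 and 0.61, above the upper one.

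Genes that act with the ZDHHC enzymes or on the same proteins had no call in the main edgeR test of treatment. The 43 genes of 6 lists (other ZDHHC enzymes, their accessory proteins, thioesterases, other protein acyltransferases, acyl-CoA synthetases and known substrates) were tested for siLINC00622 against siNC with the cell line as a block, and edgeR called 0 of 43 at an adjusted p of 0.05. Over all genes this test called 0.228% (37 of 16258), so 0 of 43 does not show an absence of change. At an unadjusted p under 0.05 there were 10 of the 43, a larger share than the 14.6% of all genes tested (2374 of 16258). That difference in share was not tested. DESeq2 called 2 of the 37 to which it gave an adjusted p, ZDHHC16 and NRAS, against 3.43% of all genes (302 of 8805).

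The thioesterases that remove palmitate, 9 genes, had a median log2 ratio of 0.12 in the SK-MEL-28 line and 0.14 in A375. LYPLA2 had 4154 and 5081 counts in the SK-MEL-28 line and 4601 and 6761 in A375. PPT1, the lysosomal thioesterase, had 8577 and 9501 counts in the SK-MEL-28 line and 6014 and 7653 in A375. The ratios of LYPLA2 were 0.26 and 0.35 and those of PPT1 were 0.12 and 0.14, all within 1.5-fold.

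The 13 known substrates had medians of 0.05 and 0.16. NRAS, a RAS protein palmitoylated by ZDHHC9, had 8806 and 12479 counts in the SK-MEL-28 line and 4617 and 6640 in A375, with ratios of 0.47 and 0.31. The 3 accessory proteins had medians of 0.03 and 0.18, with GOLGA7, the partner of ZDHHC9, at 0.25 and 0.18. The 4 other protein acyltransferases had medians of -0.08 and 0.05, and the acyl-CoA synthetases, which supply palmitoyl-CoA, of 0.12 (3 genes with at least 10 counts) and 0.23 (4 genes).

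The cell lines themselves are a contrast that the choice of genes did not use directly. ZDHHC20 is counted among the calls below, but most of its line difference stood in the siLINC00622 libraries, whose low level chose it. SK-MEL-28 was tested against A375 over all 4 libraries with edgeR, with treatment as a block. Of the 10 chosen genes 7 were called at an adjusted p of 0.05, 2 higher and 5 lower in SK-MEL-28. This share of 70.0% was close to the 68.8% of all genes tested that were called, so the family did not stand out. Over all genes, 33.8% were called higher and 35.1% lower. Of the 10 other ZDHHC genes, 4 were higher, 3 were lower and 3 were not called.

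Of the 10 chosen genes, ZDHHC2 differed most between the lines. It was lower in SK-MEL-28 by a log2 fold change of -5.27 (SE 0.25, adjusted p 6.7e-06), at 0.115 and 0.0652 FPKM against 3.68 and 4.13 FPKM in A375. No listed gene had a mean FPKM under 0.25, so ZDHHC2, at a mean of 0.0903 in SK-MEL-28, is listed only through A375. A gene as low in both lines could not appear, which limits what its rank and size mean. ZDHHC21 was at 3.02 and 2.69 FPKM in the SK-MEL-28 line and 6.20 and 6.37 FPKM in A375, a log2 fold change of -0.97 (SE 0.11, adjusted p 0.00024). ZDHHC17 was at 2.84 and 3.003 FPKM against 5.84 and 6.15 FPKM, a log2 fold change of -0.87 (SE 0.10, adjusted p 0.00028). For these 3 genes the libraries of the lines did not overlap in FPKM, and the same was so for ZDHHC13, ZDHHC9 and ZDHHC3. A fit of 3 libraries with both terms has no residual degree of freedom, so each library was left out in turn in fits with the line as the single term. Such a fit drops the treatment block together with the library and leaves 1 line with 1 library, whose spread is taken to be like that of the other. Over the 4 such fits the estimate ranged from -5.70 to -4.92 for ZDHHC2, from -1.03 to -0.90 for ZDHHC21 and from -0.92 to -0.81 for ZDHHC17.

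The calls of ZDHHC13, ZDHHC9 and ZDHHC3 held with all 4 libraries when treatment was left out (adjusted p 0.017, 0.029 and 0.023), but not in every fit of 3 libraries. ZDHHC13 was higher in SK-MEL-28 by 0.61 (SE 0.12, adjusted p 0.0032), but the adjusted p was 0.10 without the A375 siLINC00622 library and 0.054 without SK-MEL-28 siNC. ZDHHC9 was higher by 0.58 (SE 0.13, adjusted p 0.0073), and its adjusted p was 0.13 without A375 siNC. ZDHHC3 had a log2 fold change of -0.39 (SE 0.09, adjusted p 0.0083), and its adjusted p was 0.11 without A375 siNC, 0.086 without A375 siLINC00622 and 0.096 without SK-MEL-28 siLINC00622.

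ZDHHC20 itself had a log2 fold change of -0.82 between the lines (SE 0.24, adjusted p 0.022). The difference in log2 CPM (counts scaled for library depth) was -0.45 with siNC and -1.56 with siLINC00622, so most of it stood in the siLINC00622 libraries. With treatment left out of the fit of all 4 libraries the estimate was -0.51 and was not called (adjusted p 0.60). Fits of 3 libraries, also without treatment as a term, set libraries of unequal treatment against each other. Their estimates were 0.36 without A375 siNC (adjusted p 0.77), 0.26 without SK-MEL-28 siLINC00622 (adjusted p 0.55), -1.05 without A375 siLINC00622 (adjusted p 0.37) and -2.27 without SK-MEL-28 siNC, the single one of the 4 that was called. No order of the lines in the level of ZDHHC20 can be read from it.

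ZDHHC5, ZDHHC7 and ZDHHC18 were not called, each with an estimate of 0.18. Their SEs were 0.08, 0.11 and 0.12, and their adjusted p were 0.097, 0.20 and 0.20. In the fit of 3 libraries without SK-MEL-28 siNC, which has no treatment term and so takes in the siRNA difference, ZDHHC7 (0.42, adjusted p 0.032) and ZDHHC18 (0.49, adjusted p 0.025) were called. Between the siLINC00622 libraries alone, the lines differed by 0.19 for ZDHHC7 and 0.18 for ZDHHC18 in log2 CPM. Scaling to library totals in place of edgeR's trimmed mean (TMM) moved the median over all genes from -0.03 to -0.20, and these 3 estimates with it, to between 0.01 and 0.02.

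**Figure D5:**
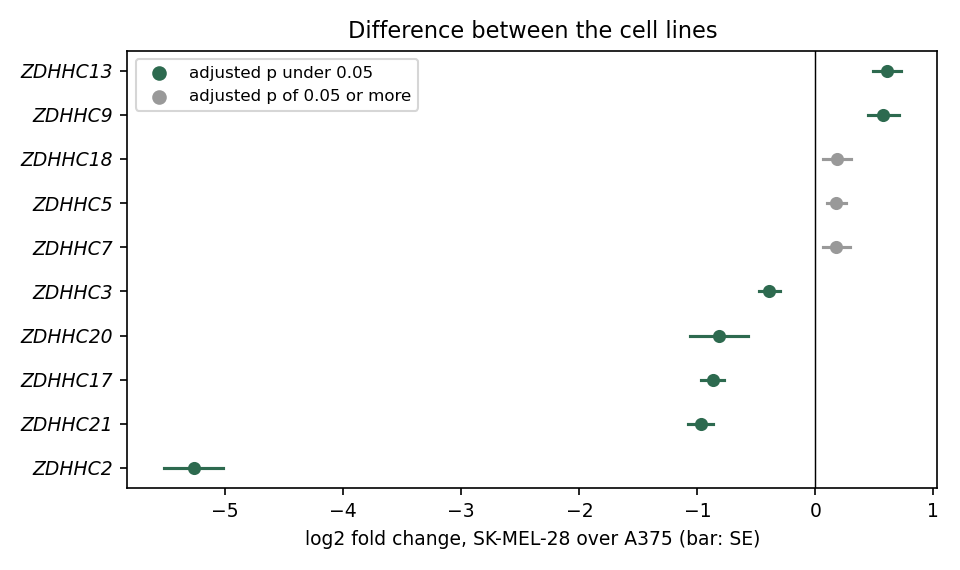
Log2 fold change of SK-MEL-28 over A375 for the 10 chosen genes, with bars of 1 SE; green points had an adjusted p under 0.05 and grey points did not. ZDHHC2 lies far to the left at -5.27, and the other 9 genes lie between -0.97 and 0.61.

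The order of levels by mean FPKM put ZDHHC5 first in both lines. In A375 it was followed by ZDHHC20, ZDHHC7, ZDHHC18, ZDHHC3, ZDHHC21, ZDHHC9, ZDHHC17, ZDHHC2 and ZDHHC13. The pair of libraries overlapped in range for ZDHHC5 and ZDHHC20, ZDHHC20 and ZDHHC7, ZDHHC18 and ZDHHC3, ZDHHC21 and ZDHHC9, and ZDHHC9 and ZDHHC17. Each range joins a siNC and a siLINC00622 library, so it holds the siRNA difference and is not a replicate spread. Whether such neighbours differ was not tested. In SK-MEL-28 the order was ZDHHC5, ZDHHC7, ZDHHC20, ZDHHC9, ZDHHC18, ZDHHC3, ZDHHC17, ZDHHC21, ZDHHC13 and ZDHHC2. There the ranges overlapped for ZDHHC7 and ZDHHC20, ZDHHC20 and ZDHHC9, ZDHHC9 and ZDHHC18, ZDHHC17 and ZDHHC21, and ZDHHC21 and ZDHHC13. Since the spread of ZDHHC20 holds its difference between siNC and siLINC00622, its overlaps are wide by construction.

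ZDHHC20 lies on chromosome 13 at 21372573 to 21459370 on the minus strand, and LINC00622 on chromosome 1 at 119597702 to 119599271, both in GENCODE 29 on GRCh38. The nearest listed genes on each side of ZDHHC20 were compared with it in the same libraries. Their distances from it ran from 33.3 kb (MICU2) to 1237 kb (FTH1P7). On one side lie the pseudogene MIPEPP3, MRPL57, which encodes a mitochondrial ribosomal protein, and SKA3, a component of the kinetochore. Their log2 ratios in the SK-MEL-28 line and A375 were -0.13 and -0.32, 0.06 and -0.01, and -0.49 and -0.52. On the other side lie MICU2, a regulator of mitochondrial calcium uptake, and the pseudogenes RPS7P10 and FTH1P7, with ratios of -0.05 and 0.08, 0.22 and -0.28, and 0.02 and 0.28. Each of the 6 neighbours stayed within 1.5-fold in both lines. The counting interval of SKA3 lay below 0 in the SK-MEL-28 line (-0.61 to -0.37) and in A375 (-0.62 to -0.43). The intervals of the other neighbours spanned 0, apart from RPS7P10 in A375 (-0.54 to -0.02). ZDHHC20-IT1, a transcript inside an intron of ZDHHC20, had 3 to 5 counts in each library.

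The genes whose pattern over the 4 libraries was most like that of ZDHHC20 were found by the root mean square difference of centred log2 CPM among 14295 genes. They were FBXO28 (0.369), KRTAP2-3 (0.39), KRR1 (0.395), CYRIB (0.408) and RNF138 (0.454). FBXO28, an F-box protein, had 2003 and 691 counts in the SK-MEL-28 line and 3421 and 1858 in A375, with log2 ratios of -1.56 and -1.09. KRTAP2-3 had at most 56 counts, and the other 3 genes had ratios between -1.74 and -0.77. In their longest UTRs, ATTGACT was found in 1 of the 5 genes (FBXO28, 2 matches) and GTGAGAA in 2 of the 5 (KRR1 and RNF138, 2 matches each). Over all genes with a UTR the shares were 12.5% for ATTGACT and 16.1% for GTGAGAA. These genes were picked for likeness over 4 libraries, of which the siRNA and the line are the only contrasts. Their ratios are therefore a description, and nothing is read from the matches in 5 such genes.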

How the data were processed

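RNA-Seq of 4 poly(A)-selected, paired-end libraries was analysed, 1 per condition, grouped by the cell line and siRNA in the labels. The deposited table gives raw read counts per gene, CPM, FPKM and TPM for each library, as made by the authors. The submitters' notes name HISAT2, HISAT, TopHat2, Bowtie2 and hg19 with no roles, and the counter is not given in the sources used here. The table holds 17755 genes, of which none has a mean FPKM under 0.25, so genes of lower level could not be seen. Totals lay between 31269923 and 36384819 counts, of which the listed genes held 99.7% to 99.8%.

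Within a line, counts were scaled by TMM and compared as log2 ratios after adding a prior count of 2. Their 95% counting intervals (Clopper-Pearson) cover counting error only, since reads without molecular identifiers are not independent molecules. Across lines, edgeR 4.0.16 (R 4.3.3; filterByExpr, TMM, quasi-likelihood test, Benjamini-Hochberg over all genes) was fitted to the 4 libraries with line and treatment as terms, leaving 1 residual degree of freedom per gene. Nothing says that the libraries are independent replicates, so its p-values treat the other line or treatment as the replicate. DESeq2 1.42.0 was an alternative. Tested on simulated counts of dispersion 0.01, the fit of lines recovered 100 of 100 planted 3-fold changes and 57 of 100 planted 1.5-fold changes among 16090 genes. The fit of treatments recovered 100 and 61 of 100 among 16115 genes and called 14 unchanged genes. Apart from depth, the simulated libraries differed only by planted changes and random counts, at the same dispersion for every gene. In the data 68.8% of genes were called between the lines, so these rates may not hold for the data.

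UTRs and positions came from GENCODE 29 on GRCh38 by Ensembl identifier, and siRNA sequences from the study's oligonucleotide list. No coordinate was converted from hg19. Levels of different genes were compared as FPKM. Within a library TPM is FPKM rescaled by a constant, so its ranks and shares are the same by construction and are no check.

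The members and gene lists were chosen with earlier results of these data known. The genes named were the 10 chosen ones, every listed ZDHHC gene, of the other lists those past 1.5-fold alike in both lines or past the test and at most 4 others of high FPKM, the 3 listed neighbours on each side of ZDHHC20, the 5 genes most like it (at least 50 counts in 1 library, pseudocount of 0.1 on CPM), and LINC00622. GOLGA7 and the genes of opposite direction in the closing section were named after their values were seen.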

Additional observations from a re-analysis of the deposited data

Results flagged for a closer look

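Among the 64 ZDHHC, palmitoylation and marker genes checked, 4 had counting intervals of the siLINC00622 over siNC ratio on opposite sides of 0 in the 2 lines, and none of them was a ZDHHC gene. No share over all genes stands beside this count, and the intervals hold counting error only, so nothing is read from it. With 1 library per condition the difference between the lines was not tested. ACSL1, an acyl-CoA synthetase, had log2 ratios of -0.14 in the SK-MEL-28 line and 0.17 in A375. IFITM3, an antiviral membrane protein and substrate of ZDHHC20, had 1133 and 794 counts in the SK-MEL-28 line and 3400 and 4404 in A375, with ratios of -0.54 and 0.16. GNAQ, a palmitoylated G protein subunit, had ratios of -0.086 and 0.23. S100B, one of the melanocyte lineage markers, had 8775 and 5970 counts in the SK-MEL-28 line and 313 and 552 in A375, with ratios of -0.59 and 0.61.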

How the results depend on the processing

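The log2 ratio of ZDHHC20 in SK-MEL-28 became -2.29 from FPKM with a pseudocount of 1, which understates low values. Leaving out 1 line leaves the single-line ratios themselves, -2.54 and -1.43. From FPKM with a pseudocount of 1, 1 chosen gene was lower and 0 were higher by over 1.5-fold in SK-MEL-28, and with a pseudocount of 0.1 on FPKM 1 was lower, ZDHHC2 being the gene that dropped out. Its counts of 24 and 14 limited its ratio there, which ranged from -0.79 to -0.07 over the alternatives. Between the lines, fits of 3 libraries, which also drop the treatment block, gave 1 to 3 chosen genes higher and 3 to 5 lower in SK-MEL-28, while the share of all genes called was 48.8% to 59.5%. Over these 4 fits without the block the estimate (value with 4 libraries and the block in brackets) ranged for ZDHHC20 (-0.82) from -2.27 to 0.36 (above 0 also at 0.26), for ZDHHC7 (0.18) from -0.055 to 0.42 and for ZDHHC18 (0.18) from -0.14 to 0.49.

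The treatment as a whole called 13 genes higher and 24 lower over both lines, counts that depended on the processing. They were 1 and 0 with DESeq2 size factors in edgeR, 1 and 0 with library totals, 57 and 64 with no filter on low counts, 0 and 0 with at least 50 counts in 1 library, and 144 and 158 with the DESeq2 test. Of the other palmitoylation genes, 1 was called higher with no filter and 2 with DESeq2. The cause was not tested. A match of 6 bases in place of 7 was found in 9 ZDHHC genes for the first siRNA and 8 for the second. Among all genes with a UTR, such matches stood in 51.4% and 37.5%. A match of 8 bases was found in 2 and 1 of the 20 ZDHHC genes, and in 6.51% and 5.15% of all genes with a UTR.

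The labels give no replicate numbers that pair the samples, so the other factor served as the block. With no replicate block, the treatment called 0 genes higher and 0 lower, and ZDHHC20 was no longer called between the lines (-0.51, adjusted p 0.60), whereas the other 6 line calls among the chosen genes remained.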
